A study of Homo sapiens with 6 samples.

Results

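The 36 genes described here encode aminoacyl-tRNA synthetases, 20 that serve the cytosol and 16 that serve mitochondria. They were chosen by name, and all 36 were found among the 27469 genes with values in the count table, under the older symbols without the suffix 1. Transcripts were counted from their 3' ends in HMC3, an established line derived from human microglia by transformation with SV40 large T antigen. The 3 Control libraries came from HMC3 cells labelled only as controls, with no vehicle named, and the 3 IL-33 libraries from HMC3 cells given interleukin-33 for 24 h, with no dose named. Both groups share the line and the kit. The labels do not tell whether a group's libraries are separate cultures, and the p-values then reflect only the library-to-library spread, which may be technical.

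An aminoacyl-tRNA synthetase joins an amino acid to its matching tRNA, the step at which the genetic code is read chemically. Cytosolic synthetases charge tRNAs for translation of nuclear messengers, and a separate nuclear-encoded set is imported into mitochondria to charge the mitochondrial tRNAs. In mammalian cells several of the cytosolic enzymes sit in a multisynthetase complex held by scaffold proteins. Many cytosolic synthetase genes are targets of ATF4, the transcription factor that responds to amino acid shortage, and WARS, for tryptophan, is inducible by interferon-gamma.

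ATF4 binds the C/EBP-ATF element, and stretches of synthetase promoters that hold its letters are shown for that reason. RefSeq promoters (GRCh38.p14, 250 bases before to 50 after the annotated start) were matched for 30 members, 16 cytosolic and 14 mitochondrial. DARS, LARS, VARS, YARS, AARS2 and VARS2 were not matched. The C/EBP-ATF element was searched as TGATGNAA on both strands. It was present in at least 1 promoter of 7 of the 16 cytosolic and 1 of the 14 mitochondrial genes. Of all 35116 promoters of the same length, 3.62% held it. A gene can have more than 1 promoter, as EARS2 does, so a share of genes is not like a share of promoters. With C at the open position (TGATGCAA, a subset of the former), it was present in promoters of 6 cytosolic genes and in 0.866% of all promoters. Each window below holds 30 bases in the direction of the gene, with the match in capitals and a match on the opposite strand given as its reverse complement.
AARS: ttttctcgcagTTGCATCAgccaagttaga
CARS: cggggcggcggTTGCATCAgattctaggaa
IARS: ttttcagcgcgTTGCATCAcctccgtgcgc
MARS: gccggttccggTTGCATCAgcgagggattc
TARS: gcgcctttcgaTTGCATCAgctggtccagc
NARS: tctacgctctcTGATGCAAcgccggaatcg
GARS: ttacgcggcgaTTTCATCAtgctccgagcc
WARS: tttcagaaggGAAACTGAAAgaaagagggg

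In AARS (chr16:70289675-70289704, minus strand) the match began 187 bases before the start. It began 33 bases before the start in GARS (chr7:30594834-30594863, plus strand), 13 in IARS (chr9:92293692-92293721, minus strand), 4 in MARS (chr12:57488053-57488082, plus strand) and 2 in CARS (chr11:3057407-3057436, minus strand). In TARS (chr5:33440956-33440985, plus strand) and NARS (chr18:57621804-57621833, minus strand) it began at transcribed base 3 and 15. The mitochondrial match was in YARS2. All 7 cytosolic genes belong to a list of 12 synthetases reported as ATF4 targets, of which 10 had a promoter. The last window, from WARS (chr14:100375383-100375412, minus strand), shows a core of the interferon-stimulated response element, searched as GAAA, 2 open bases and GAAA on both strands, that began 55 bases before the start. That core was present in promoters of 2 of the 30 genes, WARS and EARS2, and in 3.57% of all promoters. The E-box CACGTG, the site of MYC and related factors, was present in IARS, CARS2, EARS2 and MARS2, 4 of 30 genes, and in 7.26% of all promoters. All distances are from the RefSeq start. Apart from that of AARS, the windows shown lie inside the GENCODE genes, which begin further upstream and whose positions are used below. A match describes letters in this window and is no evidence of binding.

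Library totals ran from 5739947 to 10217529 counts, and levels are given in CPM, the counts per 1e6 on TMM-scaled library sizes. A count of 3 in a library was worth 0.293 to 0.543 CPM. Control 3 had the lowest total and stood apart from the other 5 libraries on the first principal component, at 49.0 against -16.6 to 1.84, and values without it are given where leaving it out turned a direction or moved a value by over 1.5 times. Of 14 microglial markers, 8, among them ITGAM, P2RY12, TMEM119, CX3CR1 and SPI1, had 0 counts in all libraries and 2 could be tested. The summed level of the list was 22.1 to 46.2 CPM in the Controls and 30.6 to 36.3 CPM after IL-33. Of 12 fibroblast or mesenchymal markers 8 could be tested, with FN1 at 3672 CPM, and COL3A1, ACTA2 and LUM had 0 counts. Their sum was 7026 to 8112 CPM in the Controls and 7457 to 7815 CPM after IL-33. Sums of neuron, astrocyte and oligodendrocyte markers reached at most 41.1, 97.4 and 7.35 CPM in any library. The part of these differences in the results below was not tested.

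A gene's count in this kit does not grow with transcript length, because a tag is read near the 3' end, so CPM values were compared between genes directly. Transcripts of the cytosolic enzymes were the more abundant class in every library. In CPM, the cytosolic genes had means over the 6 libraries from 43.8 to 382 (median 126) and the mitochondrial genes from 1.60 to 35.95 (median 16.03), against a median of 23.3 for the 12125 genes tested. The means of the 2 classes therefore did not overlap. The cytosolic genes lay between percentiles 66.7 and 97.0 of the tested genes by level and the mitochondrial genes between 4.55 and 61.3. Summed over members, cytosolic transcripts came to 3422 ± 283 CPM in the Controls and 3225 ± 119 CPM after IL-33 (mean ± SD, n = 3 libraries a group). Mitochondrial transcripts came to 279 ± 2.21 and 286 ± 5.20 CPM. The cytosolic sum includes GARS and KARS (means of 106 and 232 CPM), genes that also make the mitochondrial enzyme, so it is not purely cytosolic.

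The ratio of the 2 sums was 11.8, 11.5 and 13.5 in Control 1, 2 and 3 and 11.7, 11.6 and 10.6 in IL-33 1, 2 and 3. The groups overlapped, with the highest ratio in Control 3 and the lowest in IL-33 3. The group means were 12.3 ± 1.10 and 11.3 ± 0.603, and the Control mean without Control 3 was 11.6. The ratio sums over members, so it was described and not tested.

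**Figure D1:**
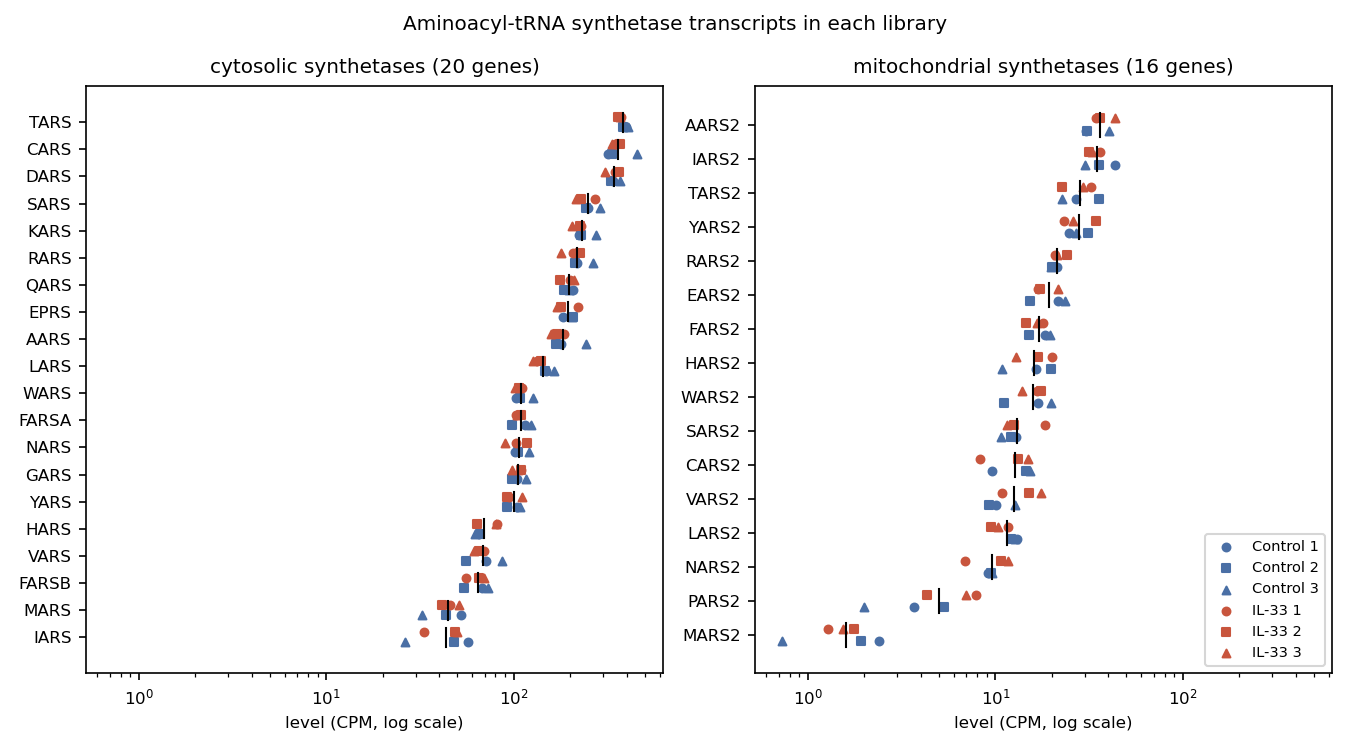
Level of each synthetase transcript in CPM (log axis) in each of the 6 libraries, with cytosolic genes on the left and mitochondrial genes on the right, sorted by mean; colour marks the group, symbol shape the replicate and the black bar the mean of 6. Mean levels run from 43.8 to 382 CPM on the left and from 1.60 to 35.95 CPM on the right.

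The cytosolic enzymes for threonine, cysteine and aspartate were the highest. TARS (chromosome 5, 33440696 to 33469539, plus strand, positions here and below from GENCODE 29 on GRCh38) measured 396, 384 and 409 CPM in Control 1, 2 and 3 and 372, 360.1 and 371 CPM in IL-33 1, 2 and 3. The lowest Control value exceeded the highest IL-33 value, by a small margin. The log2 fold change (IL-33 against Control, here and below) was -0.11 ± 0.09 (SE), and TARS varied least of the cytosolic genes, 1.14-fold between its highest and lowest library. CARS (chromosome 11, 3000922 to 3057613, minus strand) measured 320.4, 337 and 453 CPM in the Controls and 348, 370.5 and 335 CPM after IL-33. The Control 3 value stood above the other 5, and without that library the log2 fold change went from -0.07 to 0.10. DARS, for aspartate, measured 340.0, 332 and 368 CPM in the Controls and 348, 367 and 306 CPM after IL-33, with overlapping groups and -0.03 ± 0.10 (0.02 without Control 3). Together these 3 genes made up 32.7% of the cytosolic sum.

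The lowest cytosolic members were IARS, MARS and FARSB, and the first of them also varied most. IARS, for isoleucine (chromosome 9, 92210207 to 92293756, minus strand), measured 56.9, 48.1 and 26.2 CPM in the Controls and 33.2, 48.5 and 49.9 CPM after IL-33. Control 3 and IL-33 1 were the low libraries, in different groups, and the highest value was 2.17-fold the lowest. The Control 3 value rested on 145 counts, with an exact Poisson 95% interval of 22.1 to 30.9 CPM, and that of Control 2 on 400 counts with 43.5 to 53.0 CPM, so that the gap exceeded counting error. The fold change was -0.01 ± 0.25 with all libraries and -0.26 ± 0.16 without Control 3. MARS, for methionine (chromosome 12, 57475445 to 57517569, plus strand), measured 52.3, 43.8 and 32.6 CPM in the Controls and 45.5, 41.4 and 50.8 CPM after IL-33, again with Control 3 the lowest. Its fold change was 0.09 ± 0.17, and -0.07 without Control 3. The last 1000 bases of MARS overlap exons of DDIT3, a stress-induced transcription factor gene of the other strand (1322 counts over all libraries), and since the counting's use of strand is not given, reads from these neighbours cannot be told apart. FARSB encodes the beta subunit and FARSA the alpha subunit of the cytosolic phenylalanyl enzyme. FARSB measured 65.0 ± 9.85 CPM in the Controls and 63.4 ± 7.05 CPM after IL-33, and FARSA 112 ± 12.6 and 106 ± 3.86 CPM. Without Control 3 the fold change of FARSB went from -0.03 to 0.06 and that of FARSA from -0.08 to -0.01.

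Among mitochondrial enzymes, AARS2, IARS2 and TARS2 were the highest. AARS2, for alanine (chromosome 6, 44299654 to 44313326, minus strand), measured 30.5, 30.9 and 40.2 CPM in the Controls and 34.5, 36.1 and 43.5 CPM after IL-33, with overlapping groups. Its log2 fold change was 0.17 ± 0.17, and 0.31 without Control 3. IARS2 measured 43.5, 35.6 and 30.04 CPM in the Controls and 36.1, 31.6 and 32.7 CPM after IL-33 (-0.13 ± 0.17), and TARS2 27.0, 35.7 and 22.6 CPM in the Controls and 32.4, 22.8 and 29.2 CPM after IL-33 (-0.02 ± 0.20). In both genes Control 3 was the lowest of the 6 libraries, and the groups overlapped. Without it the values were -0.24 for IARS2 and -0.16 for TARS2.

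The lowest 3, MARS2, PARS2 and NARS2, lay under 10 CPM. MARS2, for mitochondrial methionine, had 4 counts in Control 3 and at most 24 in any library, or 2.38, 1.92 and 0.724 CPM in the Controls and 1.28, 1.76 and 1.53 CPM after IL-33. At this depth its interval, -1.60 to 1.25 on the log2 scale, excludes little, and the fold change went from -0.18 to -0.50 without Control 3. NARS2, for asparagine, measured 9.14, 9.50 and 9.59 CPM in the Controls and 6.93, 10.7 and 11.7 CPM after IL-33, so that the IL-33 values lay on both sides of the Control values (0.06 ± 0.29).

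Pairing the genes by amino acid gave 17 ratios of a cytosolic to a mitochondrial level. In 16 pairs the cytosolic transcript was higher in all 6 libraries, and in 9 the mean ratio was 10 or more. The widest pair was EPRS over PARS2, for proline, at 63.9 ± 34.5 in the Controls and 31.4 ± 9.13 after IL-33, with a Control mean of 44.3 without Control 3. EPRS charges both glutamate and proline, and its ratio to the glutamate enzyme EARS2 was 10.2 ± 2.82 in the Controls and 10.4 ± 2.56 after IL-33. EPRS itself measured 182, 206 and 206 CPM in the Controls and 220.3, 179 and 170.0 CPM after IL-33, with overlapping groups (-0.06 ± 0.11, and -0.03 without Control 3). MARS over MARS2, at 29.9 ± 13.1 in the Controls and 30.8 ± 6.36 after IL-33, and CARS over CARS2, at 28.6 ± 5.11 and 30.9 ± 9.98, did not differ beyond their spread. Without Control 3 their Control means were 22.4 and 28.2. The closest pairs by the mean of all 6 libraries were YARS over YARS2, for tyrosine, at 3.71 ± 0.668 in the Controls and 3.67 ± 0.856 after IL-33, and IARS over IARS2 at 1.18 ± 0.264 and 1.33 ± 0.352. FARSB over FARS2, at 3.68 ± 0.0750 and 3.91 ± 0.728, lay within the spread of the tyrosine pair. YARS measured 101 ± 8.05 CPM in the Controls and 99.2 ± 10.6 CPM after IL-33, and YARS2 27.7 ± 3.34 and 27.9 ± 5.74 CPM. Their fold changes went from -0.03 to 0.01 and from 0.01 to -0.01 without Control 3. The isoleucine pair was the sole pair to invert: the ratio was 0.873 in Control 3 and 0.920 in IL-33 1. In Control 3 both IARS and MARS lay under the highest mitochondrial gene, AARS2 at 40.2 CPM, and in IL-33 1 IARS lay under IARS2.

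**Figure D2:**
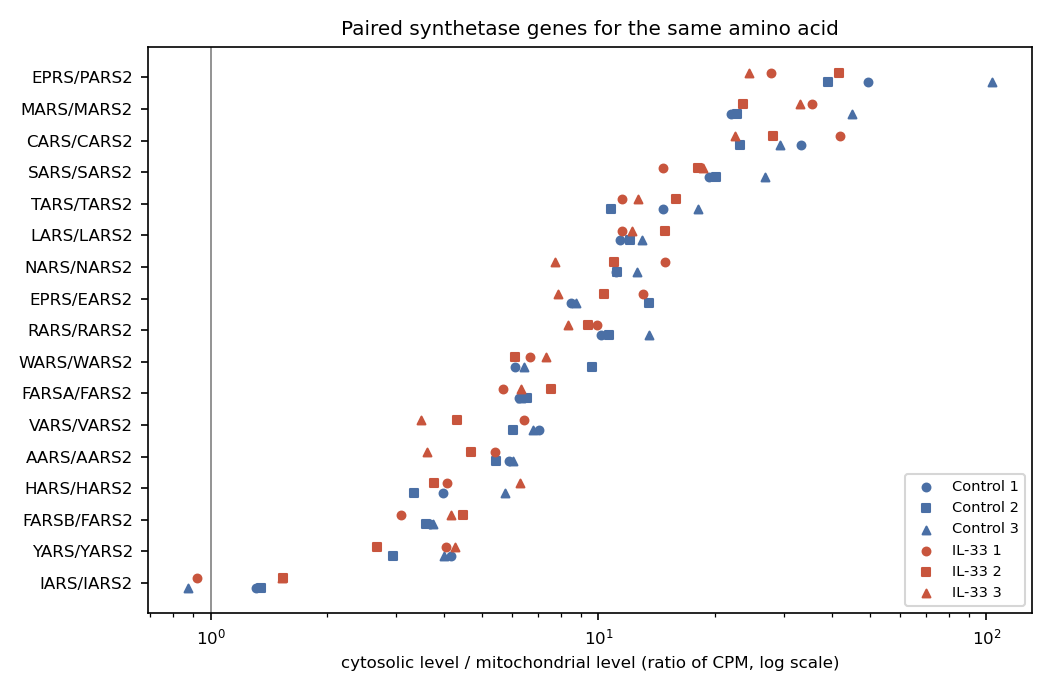
Ratio of the cytosolic to the mitochondrial level (CPM over CPM, log axis) for 17 gene pairs that charge the same amino acid, with a point for each library, coloured by group and shaped by replicate; the vertical line marks a ratio of 1. EPRS/PARS2 has the highest ratios, up to 103 in Control 3, and IARS/IARS2 alone crosses 1.

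IL-33 was compared with Control to ask which synthetase transcripts differ after 24 h of the cytokine. None passed the test: 0 of 36 members had a Benjamini-Hochberg adjusted p under 0.05 by edgeR's quasi-likelihood test fitted on all 12125 genes, and the smallest adjusted p among them was 0.999. Over all tested genes, 0 (0%) passed, and DESeq2 called 1 and limma-voom 0. At an unadjusted p under 0.05 by edgeR there were also 0 of 36, against 295 (2.43%) of all genes; 1.45% of all genes were higher and 0.981% lower after IL-33 at that p. Without Control 3 there was 1 of 36, VARS2, against 6.3% of all genes. All 36 members passed the low-count filter. DESeq2 and limma-voom likewise called 0 members, with 0 at an unadjusted p under 0.05.

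The log2 fold changes of the cytosolic genes ran from -0.20 (AARS) to 0.22 (HARS), with SEs of 0.09 to 0.25. All 20 of their 95% intervals lay within -1 to 1, against 73.4% of all tested genes. Of the 20, 19 lay within -0.5 to 0.5, all but IARS, against 4829 of the 12125 tested genes. In this group 2 members, HARS and MARS, had a fold change above 0 and 18 below, with a median of -0.07, while 48.9% of all tested genes were above 0 with a median of -0.01. Of the mitochondrial genes 9 were above 0 and 7 below, and the median was 0.01. Of their 16 intervals 13 lay within -1 to 1, but only 3 within -0.5 to 0.5. These shares were not matched for level. The median SE was 0.12 for the cytosolic genes (median 126 CPM), 0.25 for the mitochondrial genes (16.0 CPM) and 0.21 for all tested genes (23.3 CPM). The part of level in the interval widths was not tested. The count of 2 of 20 rested on Control 3: without it, 8 cytosolic genes were above 0 and the median was -0.01. In all, 12 of 36 members changed direction without that library, 8 cytosolic (CARS, DARS, FARSB, GARS, MARS, VARS, WARS and YARS) and 4 mitochondrial (CARS2, EARS2, HARS2 and YARS2). The difference between the 2 classes was not tested.

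**Figure D3:**
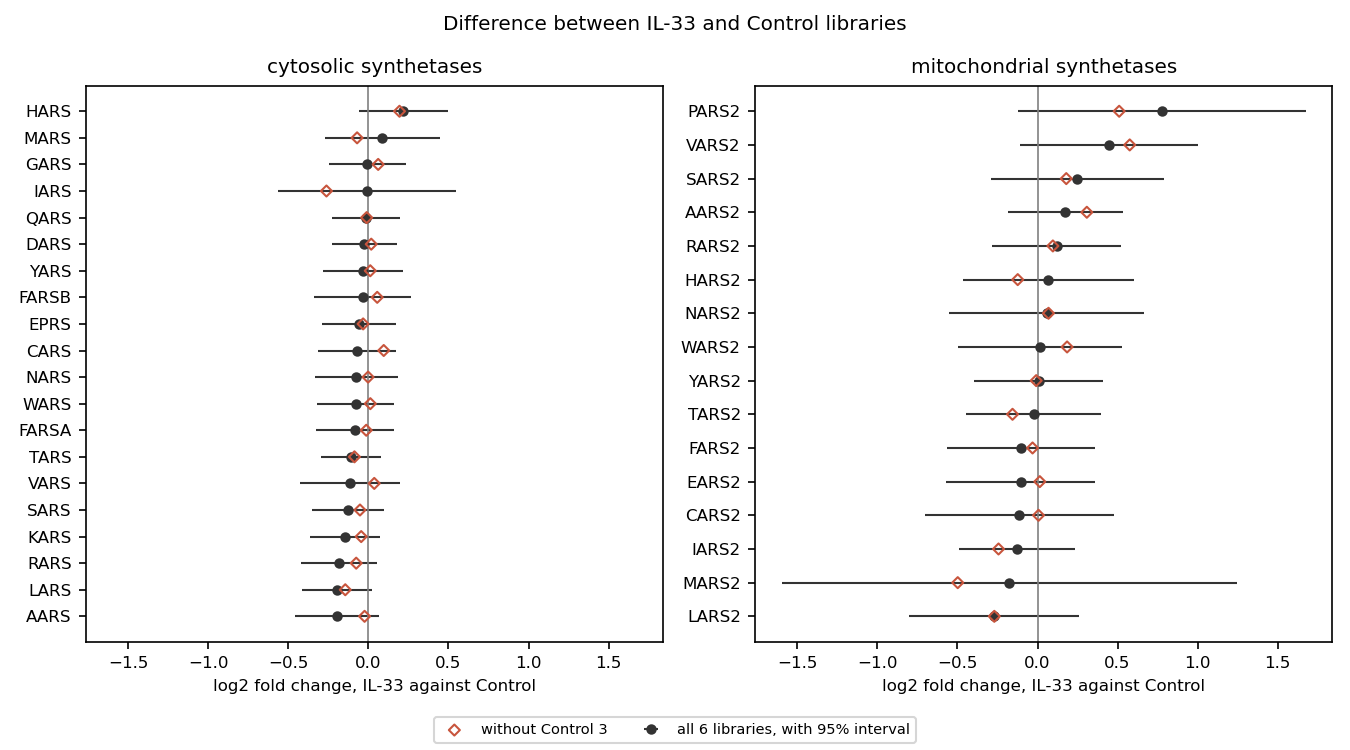
Log2 fold change of each synthetase gene, IL-33 against Control, with its 95% interval from edgeR (black) and the value without Control 3 (open diamonds). The cytosolic values lie between -0.20 and 0.22, while PARS2 and MARS2 have the widest intervals.

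LARS, for leucine, had the smallest p of the cytosolic genes. LARS (chromosome 5, 146113038 to 146182660, minus strand), a member of the multisynthetase complex, measured 149, 146 and 164 CPM in the Controls and 134, 141 and 127 CPM after IL-33. Every IL-33 value was under every Control value. Its log2 fold change was -0.20 ± 0.10 (95% interval -0.41 to 0.02), and -0.14 without Control 3. LARS2, the mitochondrial leucine enzyme (chromosome 3, 45388506 to 45549421, plus strand), measured 13.1, 12.1 and 12.7 CPM in the Controls and 11.6, 9.47 and 10.4 CPM after IL-33. Its groups did not overlap either, with -0.27 ± 0.25. With TARS these were the 3 of 36 members whose groups did not overlap, against 8.06% of all tested genes. All 3 were lower after IL-33, a direction held by 3.51% of all tested genes, and 0 members were higher in this way, against 4.54%.

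The other members with small p and negative values were RARS and AARS. RARS, for arginine (chromosome 5, 168486445 to 168519299, plus strand), measured 217, 213 and 266 CPM in the Controls and 207, 227 and 178 CPM after IL-33, a log2 fold change of -0.18 ± 0.11. AARS, for alanine (chromosome 16, 70252295 to 70289543, minus strand), measured 179, 169 and 242 CPM in the Controls and 186, 169 and 157 CPM after IL-33 (-0.20 ± 0.13). In both genes Control 3 was the highest library and the groups overlapped. Without Control 3 the values were -0.08 for RARS and -0.02 for AARS.

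PARS2, VARS2 and HARS had the smallest p among members with positive values. PARS2, for mitochondrial proline (chromosome 1, 54756898 to 54764514, minus strand), measured 3.67, 5.29 and 1.99 CPM in the Controls and 7.89, 4.30 and 6.96 CPM after IL-33. The counts were 37, 44 and 11 in the Controls and 74, 44 and 59 after IL-33, and IL-33 2 lay within the Control range. Its log2 fold change was 0.78 ± 0.43 (-0.12 to 1.67), and 0.51 ± 0.42 without Control 3. VARS2, for mitochondrial valine (chromosome 6, 30908242 to 30926459, plus strand), measured 10.1, 9.26 and 12.7 CPM in the Controls and 10.9, 15.04 and 17.6 CPM after IL-33, a log2 fold change of 0.45 ± 0.27. Its groups overlapped through Control 3, without which it was 0.58 ± 0.28. Its Benjamini-Hochberg adjusted p was then 0.778 (edgeR, quasi-likelihood).

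HARS and HARS2, for histidine in the cytosol and in mitochondria, lie head to head on chromosome 5 (140673904 to 140691862, minus strand, and 140691426 to 140699318, plus strand) and share 437 bases at their starts. HARS measured 65.1, 66.1 and 62.4 CPM in the Controls and 81.3, 63.5 and 80.9 CPM after IL-33, so that IL-33 1 and 3 stood above Control and IL-33 2 lay within it. The log2 fold change was 0.22 ± 0.13, and 0.33 without IL-33 2. HARS2 measured 16.4, 19.7 and 10.9 CPM in the Controls and 19.9, 16.8 and 12.8 CPM after IL-33 (0.07 ± 0.25, and -0.12 without Control 3, its lowest library). The 3' end of HARS overlaps exons of WDR55, which runs the other way (163 counts over all libraries). HARS2 shares 6.47% of the 50-base words of its transcript ends with ZMAT2. That gene overlaps HARS2 on the same strand, with an exon in its last 1000 bases. Over all libraries ZMAT2 had 18159 counts and HARS2 857. How reads shared by them were counted is not stated, so the HARS2 level is uncertain.

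GARS and KARS, for glycine and lysine, each make both the cytosolic and the mitochondrial enzyme from the same gene. GARS measured 104, 98.6 and 116 CPM in the Controls and 109, 109 and 98.3 CPM after IL-33, a log2 fold change of -0.01 ± 0.11 (-0.24 to 0.23), and 0.06 without Control 3. KARS measured 224, 229 and 276 CPM in the Controls and 228, 227 and 204 CPM after IL-33 (-0.14 ± 0.10, and -0.04 without Control 3). The counts do not show which form of either messenger was read. Both groups overlapped in both genes.

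The remaining members had small differences and overlapping groups. SARS, for serine, measured 249, 244 and 288 CPM in Control 1, 2 and 3 and 271, 228 and 215 CPM in IL-33 1, 2 and 3, a log2 fold change of -0.13 ± 0.11. NARS, for asparagine, had 109 ± 9.91 CPM in the Controls against 103 ± 13.6 CPM (-0.07 ± 0.12), and VARS, for valine, 71.1 ± 15.1 against 65.3 ± 4.32 CPM (-0.12 ± 0.15). In all 3 genes Control 3 was the highest library, and without it the fold changes were -0.05 for SARS, -0.0015 for NARS and 0.04 for VARS. Of the mitochondrial enzymes, the fold change was -0.11 ± 0.28 for CARS2 (cysteine), -0.10 ± 0.22 for EARS2 (glutamate) and -0.10 ± 0.22 for FARS2 (phenylalanine). It was 0.02 ± 0.25 for WARS2 (tryptophan) and 0.12 ± 0.19 for RARS2 (arginine). Without Control 3 it was 0.01 for CARS2 and EARS2, -0.03 for FARS2 and 0.18 for WARS2. RARS2 varied least of the mitochondrial genes, 1.23-fold between its highest and lowest library, and PARS2 most, 3.96-fold.

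WARS measured 103, 107 and 126 CPM in the Controls and 111, 107 and 101 CPM after IL-33, with overlapping groups and a log2 fold change of -0.08 ± 0.12 (-0.32 to 0.16), and 0.01 without Control 3. The interval allows at most a 1.12-fold higher level after IL-33. Of 13 interferon-gamma genes listed with it, 4 had 0 counts in all libraries and 6 could be tested. Of these 0 changed in either direction, 5 had a fold change above 0, and the median was 0.24. Without Control 3, 4 were above 0 and the median was 0.25, with TAP1 going from 0.06 to -0.07 and PSMB9 from -0.27 to -0.04. The libraries of the IL-33 group were split: in IL-33 2 all 6 genes lay above both other IL-33 libraries, against 32.9% of all tested genes, and in IL-33 3 5 of 6 lay below both, against 32.7%. Without IL-33 2 the list had 3 genes above 0 and a median of 0.01. PSMB8, an immunoproteasome subunit, had a log2 fold change of 0.32 ± 0.25, and IRF1, an interferon-responsive transcription factor, 0.25 ± 0.21.

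Control 3 was the library in which the cytosolic synthetases deviated most. Of the 20 genes 14 had their highest value of the 6 libraries there, against 26.1% of all tested genes. IARS, MARS and HARS had their lowest there, against 27.1%. The median log2 difference of Control 3 from the mean of Control 1 and 2 was 0.21 for cytosolic synthetases, -0.03 for mitochondrial ones and -0.01 for all genes. The largest positive differences were those of AARS (0.48), CARS (0.46) and VARS (0.44), and the largest negative ones those of IARS (-0.99) and MARS (-0.55). The 6 genes with the TGATGCAA element shown above differed in both directions: AARS, CARS, NARS (0.21) and TARS (0.07) were higher in Control 3, and IARS and MARS lower. Of the 12 synthetases of the ATF4 list 9 lay above both other Controls there (75.0%) and 2 below both (16.7%). Of all tested genes 39.2% lay above both and 39.9% below both. The median of the 12 was 0.18, and of the 20 cytosolic genes 15 (75.0%) lay above both. In IL-33 3, 10 of the 20 cytosolic genes had their lowest value, against 13.7% of all tested genes. The mitochondrial genes had their highest value in Control 3 in 4 of 16 and their lowest in 7 of 16. Control 3 also had the lowest depth, and the part of depth in these differences was not tested.

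**Figure D4:**
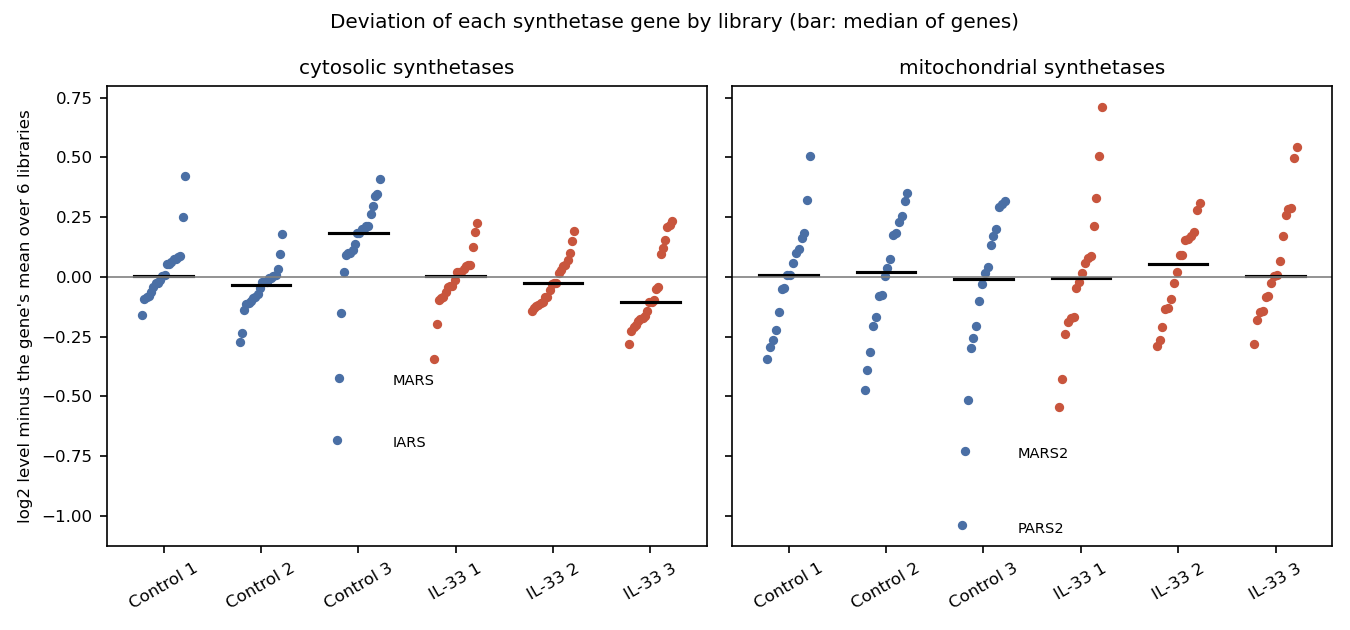
Deviation of each synthetase gene from its mean over the 6 libraries (log2 of CPM + 0.5), by library, for cytosolic genes on the left and mitochondrial genes on the right; points are genes and black bars medians. The cytosolic median is 0.18 in Control 3 and -0.10 in IL-33 3, and IARS and MARS lie far below the other cytosolic genes in Control 3.

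Grouped by enzyme architecture, 0 members changed in any group. The 18 class I enzymes had 5 fold changes above 0 and a median of -0.08, and the 17 class II enzymes 6 above 0 and -0.03 (EPRS, which holds a domain of each class, was left out of both). Without Control 3 there were 9 and 8 above 0, with medians of -0.00096 and -0.0015. The 8 enzymes of the multisynthetase complex had 1 fold change above 0 and a median of -0.04 (1 and -0.06 without Control 3). Of the complex's 3 scaffolds, AIMP1 measured 80.3 ± 4.62 CPM in the Controls and 74.4 ± 2.98 CPM after IL-33 (-0.11 ± 0.12) and EEF1E1 65.6 ± 8.85 and 63.9 ± 0.980 CPM (-0.04 ± 0.13, and -0.14 without Control 3). The third, AIMP2, had at most 4 counts in a library and was not tested; how reads shared between genes were counted is not stated, so this does not show that it is not expressed. The glutamine enzyme QARS belongs to the complex as well and measured 197 ± 11.7 and 195 ± 16.3 CPM (-0.01 ± 0.10).

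Mitochondria make glutaminyl-tRNA by amidation instead, through the products of GATB, GATC and QRSL1. GATB measured 14.98 ± 2.28 CPM in the Controls and 16.2 ± 3.34 CPM after IL-33, and GATC 42.7 ± 1.64 and 44.7 ± 3.16 CPM. QRSL1, the catalytic subunit, measured 10.2, 14.8 and 15.7 CPM in the Controls and 8.31, 12.2 and 9.67 CPM after IL-33, with overlapping groups and -0.42 ± 0.27. With SEPSECS, of selenocysteine synthesis (-1.30 ± 0.73 at 2.08 CPM), and TARSL2, a paralogue of TARS (-0.55 ± 0.41 at 5.76 CPM), it had the smallest p of 7 other charging genes, of which 0 changed and 4 were above 0. Without Control 3, 2 were above 0, and SEPSECS was -0.64, GATB 0.24 against 0.12 with all libraries. Of 4 tested genes for proofreading and recycling 0 changed and 3 were above 0. DTD2 was at 0.18 ± 0.35 and PTRH2, a peptidyl-tRNA hydrolase, at -0.07 ± 0.15. Without Control 3, 2 were above 0, with DTD2 at 0.34.

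Of 9 tested genes for tRNA maturation and export 0 changed, and 4 were above 0. CLP1, of tRNA splicing, had -0.54 ± 0.31, and RTCB, the tRNA ligase, -0.11 ± 0.15, which was 0.10 without Control 3. Without that library 5 of the 9 were above 0 and 0 were called. At an unadjusted p under 0.05 by edgeR there were then 2 of 9, CLP1 (-0.70) and XPOT, against 6.3% of all genes. XPOT, the nuclear exporter of tRNA, measured 21.6, 15.6 and 3.98 CPM in the Controls and 5.97, 5.57 and 17.3 CPM after IL-33. It was low in Control 3, IL-33 1 and IL-33 2 and high in the other 3 libraries, so that each group held low and high values (-0.55 ± 0.70, and -0.97 ± 0.39 without Control 3).

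Elongation factors, which take the charged tRNA to the ribosome, gave no call either. Of 5 cytosolic factors 0 changed and 2 were above 0, with the smallest p for EEF1A1 (-0.14 ± 0.16), EEF1B2 (0.07 ± 0.10) and EEF1D (-0.05 ± 0.11). Without Control 3, 4 of the 5 were above 0, with EEF1D at 0.07 and EEF1B2 at 0.01. EEF1G, at -0.03 with all libraries, was then 0.20. It was the 1 of 5 with an unadjusted p under 0.05 by edgeR, against 6.3% of all genes, and 0 were called. EEF1A1 measured 37.6 CPM, under EEF2 at 2169 CPM; EEF1A1 has many near-identical pseudogenes, and how reads shared with them were counted is not stated. Of 4 mitochondrial factors 0 changed and 3 were above 0, with the smallest p for GFM2 (0.44 ± 0.31), TUFM (-0.16 ± 0.14) and TSFM (0.14 ± 0.23). All 3 values moved without Control 3, to 0.17 for GFM2, 0.05 for TUFM and -0.10 for TSFM.

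The amino acid response governed by ATF4 gave 0 changed genes of 27 tested, 13 above 0 and 14 below, with a median of -0.02. Without Control 3, 15 were above 0 and 12 below, with a median of 0.02. At an unadjusted p under 0.05 by edgeR there were then 2 of 27, ASNS and PCK2 (0.31), against 6.3% of all genes. ATF4 measured 602 ± 133 CPM in the Controls and 575 ± 44.2 CPM after IL-33 (-0.07 ± 0.13, and 0.12 ± 0.08 without Control 3). Its target ASNS, asparagine synthetase, measured 115, 118 and 133 CPM in the Controls and 147, 126 and 134 CPM after IL-33 (0.15 ± 0.11), with overlapping groups. The smallest p were those of CEBPB (0.26 ± 0.14), a partner of ATF4, the amino acid transporter gene SLC38A2 (-0.20 ± 0.11) and ALDH1L2 (0.41 ± 0.28), of mitochondrial folate metabolism. Without Control 3 CEBPB was 0.12, SLC38A2 -0.06, ALDH1L2 0.28 and ASNS 0.22. The 12 synthetases of the ATF4 list had 1 fold change above 0, MARS, and a median of -0.07. Without Control 3, 4 were above 0 (CARS, GARS, WARS and YARS), MARS was -0.07 and the median was -0.03. In Control 3 ATF4 had its highest level of the 6 libraries, 753 CPM against 502 and 552 CPM in Control 1 and 2. The list of 27 genes differed from those 2 libraries by a median of -0.06, and the 12 synthetases by a median of 0.18.

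The transcript ends of the members were largely their own. In 30 members none of the 50-base words in the last 500 bases of the coding transcripts recurred in transcripts of another gene. The exception in size was SARS2, for mitochondrial serine, which shared 76.6% with AC011455.2, a protein-coding gene annotated over it on the same strand. SARS2 measured 12.9, 12.1 and 10.7 CPM in the Controls and 18.4, 12.6 and 11.6 CPM after IL-33, a log2 fold change of 0.25 ± 0.26 that was 0.02 without IL-33 1. Its level is therefore uncertain. Shares in LARS, AARS2, HARS2, TARS2 and YARS2 ran from 0.665% to 7.36%.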

How the data were processed

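The 6 libraries are Lexogen QuantSeq 3' FWD libraries of TRIZOL-extracted RNA, per the labels' protocols. The authors deposited whole-number read counts per gene, not normalized. The submitters' processing notes name STAR 2.7.5a, HTSeq 0.6.1, edgeR and hg38 without saying what each did; no source used here gives the annotation or strand setting. Of 27470 rows, 1 without values was left out. The genes were tested with edgeR 4.0.16 (R 4.3.3): filterByExpr (count minimum 10, total minimum 15), TMM, the robust quasi-likelihood test with group as sole term, and Benjamini-Hochberg adjustment at 0.05. Levels are CPM on TMM-scaled sizes; Poisson intervals cover counting error only. DESeq2 1.42.0, limma-voom (limma 3.58.1) and other scalings, filters and left-out libraries were alternatives, and the procedure was tested on simulated data. Libraries of a group differed beyond sampling noise (chi-square over degrees of freedom 5.56 to 15.8) and none were merged. Members and lists were chosen with earlier results of these data known. Of the members, those with the 3 smallest p in each direction, groups apart, or the highest or lowest levels and pair ratios were named with full values, with GARS, KARS and WARS; others were named after their values were seen. Figures were drawn with matplotlib 3.10.9. Some genes of the lists are not reported here.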

Additional observations from a re-analysis of the deposited data

How the results depend on the processing

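The count of 0 changed synthetase genes was the same under all 13 alternatives run. At an unadjusted p under 0.05, the 0 synthetases became 2 without Control 2 (AARS and PARS2), 2 without IL-33 2 (HARS and PARS2), and 1 without Control 3 or IL-33 1 (VARS2 both times). Over all genes, the count of 0 became 3 without a low-count filter (KIRREL3-AS2, MALAT1 and NEAT1), 1 with DESeq2 (KIRREL3-AS2), and 0 to 6 with a library left out, 6 being without Control 3. None of these genes is a synthetase. The median log2 fold change ran from -0.12 to -0.012 for cytosolic and from -0.021 to 0.087 for mitochondrial synthetases with a library left out, and the ratio of summed levels from 11.42 to 12.01. The ratio was 12.5 with genes under 10 CPM left out. Of the 24 synthetases named by rule, 10 kept their direction under every alternative run and 14 did not, in 30 of 309 values, all of them uncalled. GARS was 0.0064 with library size alone, 0.00096 with the 10 CPM filter and 0.0067 with limma-voom. With a library left out, fold changes ran from -0.26 to 0.23 for IARS, -0.24 to 0.025 for IARS2, -0.50 to 0.16 for MARS2, -0.070 to 0.26 for MARS, -0.17 to 0.12 for YARS2, -0.12 to 0.018 for YARS, -0.16 to 0.18 for TARS2, -0.17 to 0.10 for CARS, -0.082 to 0.045 for DARS, -0.15 to 0.056 for FARSB, -0.054 to 0.061 for GARS, -0.14 to 0.013 for WARS, -0.088 to 0.25 for NARS2 and -0.18 to 0.013 for EPRS. The cause was not tested. With the replicate number as a block, 0 genes were called, IARS had 0.035 and YARS2 -0.0043. Correlations of same-numbered deviations were -0.10, 0.02 and -0.15, so the numbers were not taken to pair the libraries.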

Other observations

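A synthetase, a tRNA exporter and a proofreading enzyme had a low value in Control 3, and all 3 were picked out after their values were seen. Of all tested genes 27.1% had their lowest value there. Of the 9 tested genes for tRNA maturation and export, 4 lay below both other Controls and 5 above both. For the 4 proofreading and recycling genes it was 1 and 2, and for the 20 cytosolic synthetases 3 and 15. The 3 genes do not stand for their lists. DTD1, which removes D-amino acids from tRNA, measured 83.4, 88.1 and 23.7 CPM in the Controls and 65.8, 72.4 and 82.4 CPM after IL-33, with a log2 fold change of 0.16 ± 0.51 (SE). In Control 3, XPOT measured 3.98 CPM and IARS 26.2 CPM, the lowest of the 6 libraries for each. Without Control 3 the fold change of DTD1 was -0.22 ± 0.12. Within the IL-33 group the 3 genes did not share a lowest library: it was IL-33 1 for IARS (33.2 CPM) and DTD1, and IL-33 2 for XPOT (5.57 CPM). With all 6 libraries the groups overlapped in all 3 genes.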
